A study of Mus musculus with 23 samples.

Results

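The genes described are Insm1, Arid5b, Rbm4, Extl1, Itga9, Cd7 and S100a14. These are 7 of the 24506 entries of the deposited mouse expression table, picked by symbol because they had large falls in oocytes or zygotes of females lacking Cxxc1. Their levels in those comparisons chose them and are given as a description, with no test. All 7 reached an FPKM of 1 in 2 or more libraries and were among the 13776 genes tested. FPKM is the number of sequenced fragments scaled to transcript length and library total.

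RNA from germinal vesicle (GV) oocytes, from zygotes and from embryos of 2 cells was sequenced in 23 libraries. Wild-type GV oocytes came from females of 3 weeks or 3 months of age, Cxxc1fl/fl;Zp3-Cre oocytes from females of 3 weeks, and Cxxc1fl/fl;Gdf9-Cre oocytes from females of 3 months. Both embryo stages had wild-type or Cxxc1fl/fl;Zp3-Cre mothers, whose age is not given, and wild-type fathers. Embryos of deletion females therefore lacked maternal Cxxc1 and could carry an intact paternal copy. Each group had 3 libraries, except 2 for wild-type 2-cell embryos. Both Cre transgenes are driven by promoters active in oocytes, Gdf9-Cre from an earlier follicle stage than Zp3-Cre, so age and Cre driver cannot be told apart between the GV deletion groups. The labels do not say whether libraries came from separate animals, so the p-values rest on a spread between samples that may be technical.

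Cxxc1 encodes CFP1, a subunit of the SETD1 complexes that methylate lysine 4 of histone H3, and its CXXC zinc finger binds unmethylated CG dinucleotides. Growing oocytes transcribe and store the RNA used during meiotic maturation and after fertilization. The GV oocyte is largely silent, much stored RNA is degraded by the zygote and 2-cell stages, and the mouse embryo switches on its own genome mainly at the 2-cell stage.

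The genes lie on 7 chromosomes and share no protein family. In GRCm38.p6 of RefSeq, which matched 7 of 7 symbols, Insm1 lies at chr2:146221997-146225020, S100a14 at chr3:90526849-90528837, Extl1 at chr4:134356373-134372547 and Itga9 at chr9:118606709-118901003. Arid5b lies at chr10:68092523-68279355, Cd7 at chr11:121036747-121039478 and Rbm4 at chr19:4784293-4794009. The build of the expression table could not be settled, since the submitters' processing notes name both mm10 and mm9, so these coordinates describe the genes and not the measurement. RefSeq promoter entries were found for 4 of the genes, Arid5b, Rbm4, Extl1 and Itga9. For Rbm4 and Extl1 a listed start site coincides with the edge of the gene. Their 250 bases upstream of that site are shown because CFP1 binds CG, with each CG in capitals.

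Extl1, chr4:134372548-134372797, minus strand: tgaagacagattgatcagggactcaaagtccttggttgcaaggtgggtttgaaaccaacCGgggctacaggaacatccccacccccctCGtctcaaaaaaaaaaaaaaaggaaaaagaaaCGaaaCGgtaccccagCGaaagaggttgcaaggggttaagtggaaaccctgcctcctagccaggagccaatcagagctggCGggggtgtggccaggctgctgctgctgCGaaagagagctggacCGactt
Rbm4, chr19:4794010-4794259, minus strand: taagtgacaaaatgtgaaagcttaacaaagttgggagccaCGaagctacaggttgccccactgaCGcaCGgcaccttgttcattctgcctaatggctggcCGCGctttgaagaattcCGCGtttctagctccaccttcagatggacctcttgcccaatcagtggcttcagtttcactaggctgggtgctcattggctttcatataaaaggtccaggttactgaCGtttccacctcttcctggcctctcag

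Each of the sequences held 8 CG, and 43.0% of the 32817 RefSeq promoter windows of the same length held at least as many. CG was found in 92.1% of all windows, with a median of 6. The Rbm4 sequence also held TATAAA once, a motif found on either strand in 12.4% of windows, and the Extl1 sequence held none. These matches describe the sequence. CFP1 binding and histone methylation at these windows were not analysed here.

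Cxxc1 itself was at 39.9, 37.9 and 41.5 FPKM in wild-type 3-week oocytes and at 0.893, 1.02 and 1.49 in Zp3-Cre oocytes. Its level in the deletion groups was 4.16 FPKM or less in all libraries, and the highest was 2-cell Zp3-Cre library 3. That library stood apart. It had 12333 genes at an FPKM of 1 or more, against 10481 and 10187 in the other libraries of its group, and its summed theca and stroma markers reached 137 FPKM against 3.47 in the lowest library of that group. Correlations between libraries of a group were at least 0.978 elsewhere, and as low as 0.936 in this group. The 2-cell tests of the 7 genes are therefore also given without it. All 12 oocyte markers had a mean of at least 1 FPKM in each GV group. By limma 5 of them were called lower and 1 higher in 3-week deletion oocytes, and 5 lower and 3 higher in 3-month deletion oocytes. Of all tested genes, 11.3% were called lower and 18.3% higher at 3 weeks, and 15.2% and 34.2% at 3 months. In deletion zygotes 11 of the 12 markers were called higher, with sums of 5330 to 6440 FPKM against 2810 to 3150, and in 2-cell embryos 12 were. Of all tested genes 35.3% were called higher in zygotes and 37.1% in 2-cell embryos. Granulosa and cumulus markers summed to 39.8 to 42.7 FPKM in wild-type 3-month oocytes and to 94.9 to 180 FPKM in Gdf9-Cre oocytes, where 9 of 13 tested markers were called higher by limma, as were 34.2% of all tested genes, and Tnfaip6 was listed at 0. The sums were also higher after deletion at 3 weeks (51.6 to 64.9 against 65.2 to 78.4 FPKM) and in zygotes (22.4 to 26.1 against 33.0 to 38.2 FPKM). There 1 and 3 of 13 were called higher, against 18.3% and 35.3% of all tested genes. In 2-cell embryos the sums overlapped, at 28.1 to 30.1 FPKM in wild type and 23.6 to 156 FPKM after deletion. Of 13 tested there, 2 were called higher and 1 lower, against 37.1% and 29.4% of all tested genes. In the bulk RNA, fewer cells of a type and less RNA per cell cannot be told apart.

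**Figure D1:**
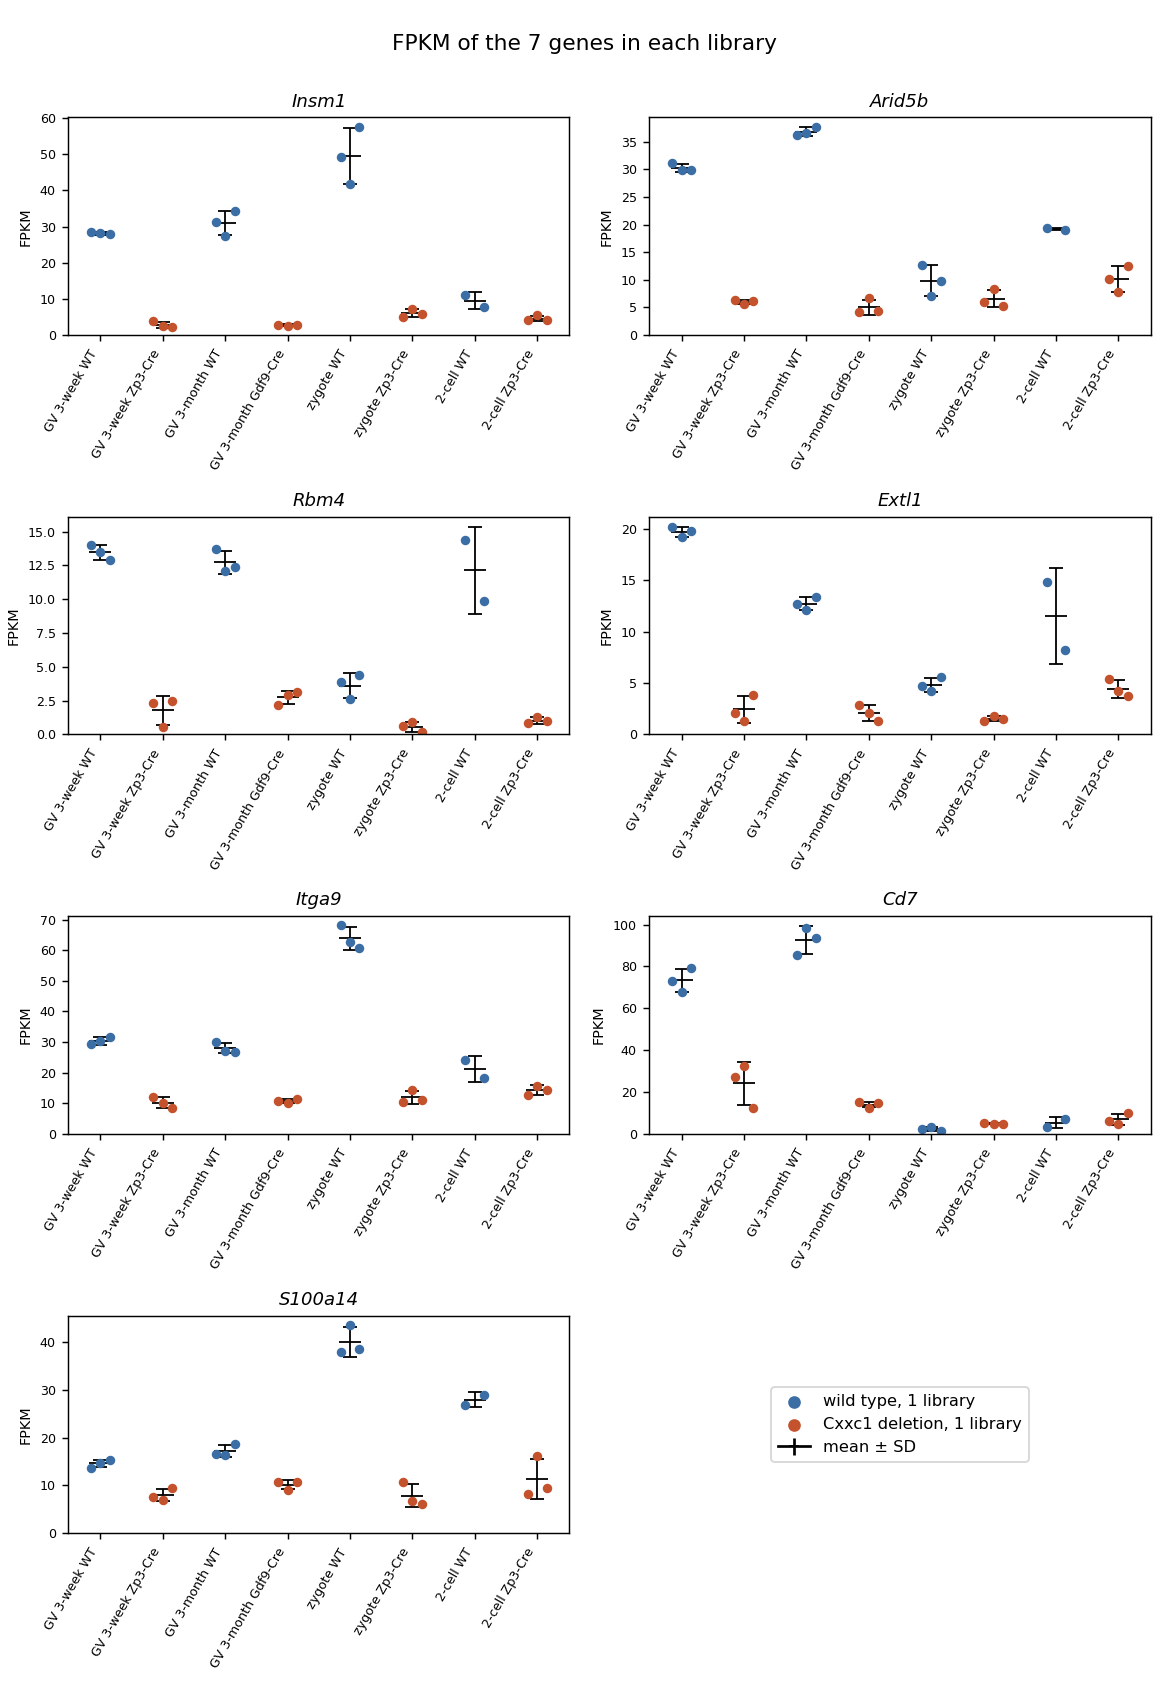
FPKM of each gene (vertical axes, linear from 0) in the 23 libraries, 1 panel per gene, with groups along the horizontal axis. Points are libraries, wild type and deletion in different colours, and bars give the group mean and SD. In both GV comparisons the deletion libraries of every gene sit below the wild-type libraries, and in zygotes Cd7 is the gene whose deletion libraries sit above.

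In deletion oocytes the genes held between 9.88% and 54.9% of the wild-type mean at 3 weeks, with a median of 19.8%, and between 8.78% and 59.1% at 3 months, with a median of 16.3%. All deletion libraries were below all wild-type libraries for 7 of 7 genes at each age. Such a separation downwards was seen for 19% of all tested genes at 3 weeks and 21.9% at 3 months, and since the genes were picked from these comparisons nothing is read from the contrast. In zygotes 5 of the 7 genes were below all wild-type libraries, against 13.9% of tested genes, Arid5b overlapped and Cd7 was higher, with no overlap, as were 41.1% of tested genes. The shares depended on scaling, in oocytes as well as in zygotes. Under median-of-ratios scaling the 3-month share went from 8.78% to 7.39% for Insm1 and from 38.2% to 32.2% for Itga9. It went from 15.2% to 12.8% for Cd7 and from 59.1% to 49.8% for S100a14. The 3-week share of Arid5b went from 19.8% to 18.3%. In zygotes the share left under this scaling went from 12.2% to 7.97% for Insm1, from 66.4% to 43.6% for Arid5b and from 31.7% to 20.7% for Extl1. It went from 18.8% to 12.3% for Itga9 and from 19.7% to 12.9% for S100a14.

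Insm1 encodes a zinc-finger transcriptional repressor known from developing neuroendocrine cells. Its FPKM was 28.6, 28.1 and 27.8 in wild-type 3-week oocytes and 3.79, 2.43 and 2.13 in Zp3-Cre oocytes. At 3 months it was 31.3, 27.5 and 34.2 in wild-type and 2.84, 2.49 and 2.83 in Gdf9-Cre oocytes. Both deletions left about the same small share, 9.88% and 8.78% of the wild-type mean. Zygotes had the highest wild-type level, 49.2, 41.9 and 57.4 FPKM, while Zp3-Cre zygotes were at 4.95, 7.21 and 5.90. In 2-cell embryos the values were 11.1 and 7.78 in wild type and 4.06, 5.45 and 4.10 after deletion. The groups were closer there but did not overlap. The 4 wild-type groups occupied the top 4 places of its 8 group means, and 3-week and 3-month wild-type oocytes were neighbours that overlapped.

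Arid5b encodes an AT-rich DNA-binding protein that acts with the histone demethylase PHF2. Wild-type 3-week oocytes had 31.1, 29.8 and 29.9 FPKM and Zp3-Cre oocytes 6.29, 5.59 and 6.11. At 3 months the values were 36.2, 36.5 and 37.7 in wild type and 4.09, 6.62 and 4.27 in Gdf9-Cre oocytes. The loss was thus of similar size at both ages, with 19.8% and 13.6% left. Zygotes differed from oocytes, with 12.7, 7.02 and 9.78 in wild type and 6.05, 8.27 and 5.30 after deletion, so that the groups overlapped. The 2-cell values were 19.3 and 19.0 in wild type and 10.1, 7.76 and 12.5 after deletion, again apart. Below the 2-cell wild-type group, its remaining 5 group means, from 10.1 down to 5.0 FPKM, each overlapped the next.

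Rbm4 encodes an RNA-binding protein that regulates alternative splicing and translation. It measured 14, 13.5 and 12.9 FPKM in wild-type 3-week oocytes and 2.34, 0.537 and 2.45 in Zp3-Cre oocytes. The 3-month values were 13.7, 12.1 and 12.4 in wild type and 2.19, 2.91 and 3.14 after deletion. In zygotes the wild-type level was itself low, at 3.85, 2.59 and 4.40 FPKM, and the deletion level lower, at 0.598, 0.930 and 0.149. Wild-type 2-cell embryos were back at 14.4 and 9.88 FPKM, but deletion embryos had 0.820, 1.29 and 0.961. Among the 7 genes it had the smallest share left at the 2-cell stage, 8.43%. Its highest 3 group means were the wild-type oocytes of both ages and the wild-type 2-cell embryos, which overlapped as neighbours, and all its deletion groups were at a mean of 2.75 FPKM or less.

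Extl1 encodes an exostosin-like glycosyltransferase of the family that builds heparan sulfate. Its FPKM was 20.2, 19.2 and 19.8 in wild-type 3-week oocytes and 2.10, 1.35 and 3.88 after Zp3-Cre deletion. At 3 months wild-type oocytes had 12.7, 12.1 and 13.4 and Gdf9-Cre oocytes 2.84, 2.06 and 1.34. The groups were far apart at both ages, with 12.4% and 16.3% left. Zygotes had 4.73, 4.20 and 5.56 in wild type and 1.32, 1.77 and 1.5 after deletion, and 2-cell embryos 14.8 and 8.21 against 5.42, 4.21 and 3.72. The deletion groups therefore held more of the wild-type level in embryos, 31.7% and 38.7%, than in oocytes. Its wild-type zygote mean of 4.83 FPKM overlapped the next group down, 2-cell embryos of deletion females at 4.45.

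Itga9 encodes the integrin alpha9 chain, which pairs with beta1 and binds matrix ligands such as tenascin-C. Wild-type 3-week oocytes had 29.3, 30.2 and 31.7 FPKM and Zp3-Cre oocytes 12, 10.1 and 8.45. The values at 3 months were 29.9, 27.2 and 26.9 against 10.6, 10.1 and 11.4. Deletion left 33.5% and 38.2%. Wild-type zygotes were the highest group, at 68.1, 62.8 and 60.6, whereas deletion zygotes had 10.4, 14.4 and 11.1, or 18.8% of wild type. In 2-cell embryos 24.1 and 18.1 stood against 12.7, 15.8 and 14.4, the narrowest gap between groups that did not overlap for this gene. The 4 deletion groups filled the lowest 4 places, with means of 10.2 to 14.3 FPKM that overlapped from each to the next.

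Cd7 encodes an immunoglobulin-family surface protein known from T cells and natural killer cells. It was the most abundant of the 7 per transcript length in wild-type oocytes, with 73.2, 67.9 and 79.1 FPKM at 3 weeks and 85.4, 98.4 and 93.8 at 3 months. Deletion oocytes had 27.3, 32.6 and 12.5 at 3 weeks and 15, 12.5 and 14.6 at 3 months, all below wild type. After fertilization the level was low in all groups, with 2.42, 3.31 and 1.59 in wild-type zygotes and 5.11, 4.79 and 4.75 in deletion zygotes. Here the deletion libraries were the higher ones, at 200% of the wild-type mean, or 131% under median-of-ratios scaling. Oocyte markers were higher in the same libraries, and their part in the difference was not tested. The 2-cell values overlapped, at 3.39 and 7.16 in wild type and 6.09, 4.57 and 9.97 after deletion. T and natural killer cell markers summed to at most 11.9 FPKM in any library over 12 genes. Of these, Cd3g and Ncr1 were listed at 0 in all libraries. In each wild-type GV group 2 of the 12 had a mean of at least 1 FPKM. Of 3 tested, limma called 1 lower at 3 weeks and 1 lower and 1 higher at 3 months. It called 1 higher in zygotes and 1 lower in 2-cell embryos. Of all tested genes, 11.3% were called lower at 3 weeks and 15.2% lower and 34.2% higher at 3 months. The shares were 35.3% higher in zygotes and 29.4% lower in 2-cell embryos.

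S100a14 encodes a small EF-hand protein of the S100 family, described mainly in epithelia. Its oocyte values lay closest together of the 7 genes, with 13.7, 14.8 and 15.3 FPKM in wild type against 7.67, 6.96 and 9.43 after deletion at 3 weeks. At 3 months wild-type oocytes had 16.6, 16.4 and 18.7 and Gdf9-Cre oocytes 10.8, 9.02 and 10.7. Deletion thus left 54.9% and 59.1% in oocytes. In wild-type zygotes the level was 38.0, 43.6 and 38.5, and in deletion zygotes 10.7, 6.82 and 6.15, which is 19.7% of wild type. The 2-cell embryos had 26.8 and 29.0 in wild type and 8.31, 16.1 and 9.54 after deletion, without overlap. The deletion groups were all lowest, between 7.88 and 11.3 FPKM, while the wild-type groups ranged from 14.6 to 40.0.

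**Figure D2:**
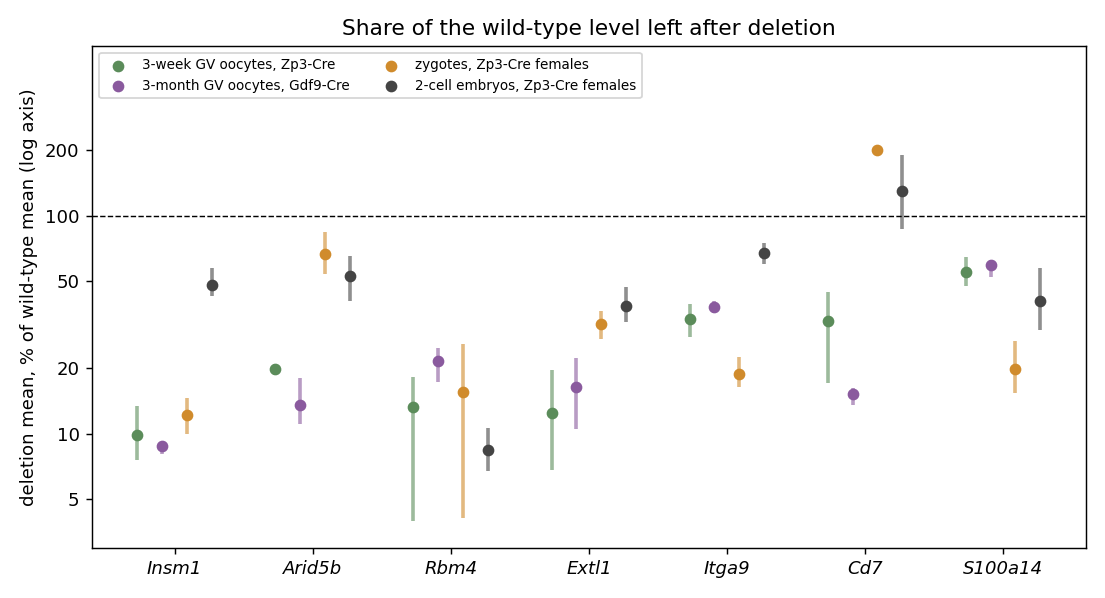
Mean FPKM after deletion as a percent of the wild-type mean (vertical axis, log scale) for each gene and each of the 4 deletion comparisons. Points are group means, vertical lines span the deletion libraries, and the dashed line marks 100%. Insm1 lies near 10% in oocytes and zygotes and at 48.1% in 2-cell embryos, and Cd7 crosses the line in zygotes.

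Deletion libraries were below all wild-type libraries in 2-cell embryos for 6 of the 7 genes, as for 29.3% of tested genes. The 2-cell stage was not used to pick the genes and could be tested, although the deletion zygotes and 2-cell embryos share the same maternal genotype. With limma on log2(FPKM + 1), 6 of the 7 genes fell in 2-cell embryos of deletion females at a Benjamini-Hochberg adjusted p under 0.05, and 0 rose. Over all tested genes 29.4% were lower by the same call and 37.1% higher. Rbm4 fell most, by 2.68 on the log2 scale (SE 0.282, adjusted p = 7.09e-08), and S100a14 fell by 1.28 (SE 0.209, adjusted p = 2.1e-05). Extl1 fell by 1.16 (SE 0.256, adjusted p = 0.000533), Insm1 by 0.91 (SE 0.185, adjusted p = 0.000247) and Arid5b by 0.88 (SE 0.21, adjusted p = 0.00101). Itga9 fell by 0.53 (SE 0.143, adjusted p = 0.00317), a call that was lost without wild-type 2-cell library 1 (log2 change -0.33, adjusted p = 0.107) and in a fit on only the 2-cell groups (adjusted p = 0.061). Cd7 had a log2 difference of 0.34 (SE 0.32, adjusted p = 0.363), with a sign that turned without wild-type 2-cell library 1 (log2 difference -0.11) and a difference of 0.07 (adjusted p = 0.861) without deletion library 3. Without the deletion library that stood apart, the same 6 genes were called, with changes from -0.53 for Itga9 to -2.66 for Rbm4. The median over all tested genes was 0.16, and it moved by -0.19 under median-of-ratios scaling, under which the changes of the 6 genes were larger, from -0.79 for Itga9 to -2.93 for Rbm4.

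In wild type the genes followed different courses from oocyte to embryo. From wild-type GV oocytes of 3 weeks to wild-type zygotes, 3 genes rose and 4 fell (limma, adjusted p under 0.05), where 19.4% of tested genes rose and 50.7% fell. The wild-type libraries in these tests are also the controls of the deletion comparisons that picked the genes. FPKM is scaled to the library total, so rises and falls between stages are relative to that total. They do not give the amount of RNA per oocyte or embryo. The risers were S100a14, with a log2 change of 1.39 (SE 0.187, adjusted p = 1.26e-06), Itga9 with 1.04 (SE 0.128, adjusted p = 3.7e-07) and Insm1 with 0.78 (SE 0.166, adjusted p = 0.000295). Cd7 fell by 4.46 (SE 0.286, adjusted p = 2.16e-11), from a mean of 73.4 ± 5.58 FPKM to 2.44 ± 0.862 (SD, n = 3 each). Extl1, Rbm4 and Arid5b fell by 1.84, 1.67 and 1.56 (SE 0.229, 0.253 and 0.187; adjusted p = 4.67e-07, 6.09e-06 and 2.72e-07). The median log2 change of all tested genes here was -0.47, and it moved by 0.42 under median-of-ratios scaling and by 0.55 under quantile normalization. The higher calls among all calls went from 27.7% to 48% and 54%. The direction of each of the 7 genes held under both, and the call of Rbm4 was lost under quantile normalization (-0.51, adjusted p = 0.0934).

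At the next step each of the genes changed in the opposite direction. The same wild-type zygote libraries enter both steps with opposite sign, so a deviation in them would move the steps apart. From wild-type zygotes to 2-cell embryos, Rbm4, Extl1, Arid5b and Cd7 rose, and Insm1, Itga9 and S100a14 fell, where 44.5% of tested genes rose and 24% fell. Rbm4 rose by 1.51 on the log2 scale (SE 0.282, adjusted p = 8.19e-05), Extl1 by 1.05 (SE 0.256, adjusted p = 0.0011) and Arid5b by 0.93 (SE 0.21, adjusted p = 0.000561). Insm1 fell by 2.28 (SE 0.185, adjusted p = 1.05e-09) and Itga9 by 1.56 (SE 0.143, adjusted p = 6.41e-09). The changes of Cd7 (0.83, SE 0.32, adjusted p = 0.0269) and S100a14 (-0.5, SE 0.209, adjusted p = 0.0386) lay near the threshold. Both were lost without wild-type zygote library 3 (adjusted p = 0.11 and 0.0551) and without wild-type 2-cell library 2 (adjusted p = 0.401 and 0.0786), and S100a14 was also lost without any 1 of the other libraries compared (adjusted p from 0.05 to 0.163). The call of Extl1 was lost without wild-type 2-cell library 1 (0.67, adjusted p = 0.0585). Cd7 was also not called under median-of-ratios scaling (0.52, adjusted p = 0.152) or in a fit on only these groups (adjusted p = 0.0923). S100a14 was also not called with no filter, equal FPKM totals, library weights or a replicate block (adjusted p from 0.0531 to 0.104). Quantile normalization moved the all-gene median by -0.53 and the higher calls among all calls from 65% to 43.4%. Under it the falls were kept and 0 of the 4 rises was called. Rbm4 was at 0.65, Arid5b at 0.32, Extl1 at 0.2 and Cd7 at -0.12 (adjusted p = 0.0539, 0.104, 0.53 and 0.746).

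In the Zp3-Cre line fewer of the genes were called at either step. The GV and zygote libraries of this line are also those of the comparisons that picked the genes. From Zp3-Cre GV oocytes to zygotes Insm1 rose by 0.9 (SE 0.166, adjusted p = 7.77e-05), Cd7 fell by 1.99 (SE 0.286, adjusted p = 4.18e-06) and Rbm4 fell by 0.77 (SE 0.253, adjusted p = 0.0112), against 21.9% of tested genes called higher and 43% lower. The call of Rbm4 was lost without Zp3-Cre oocyte library 1 or 3 or zygote library 3 (adjusted p = 0.0689, 0.074 and 0.0762). It was also lost under quantile normalization (-0.34, adjusted p = 0.275) and in a fit on only these groups (adjusted p = 0.11). The other 4 were not called, with differences of 0.22 for Itga9, 0.09 for Arid5b, -0.05 for S100a14 and -0.38 for Extl1. Quantile normalization moved the higher calls among all calls from 33.7% to 56.3%. Under it Itga9, Arid5b and S100a14 were called higher, at 0.82, 0.73 and 0.6 (adjusted p = 1.03e-05, 0.000346 and 0.0102). Under median-of-ratios scaling Itga9 and Arid5b were called higher, at 0.59 and 0.44 (adjusted p = 0.000473 and 0.0271), and S100a14 was not called (0.32, adjusted p = 0.178). From Zp3-Cre zygotes to 2-cell embryos Extl1 rose by 1.1 (SE 0.229, adjusted p = 0.000552) and Arid5b by 0.56 (SE 0.187, adjusted p = 0.019), where 32.7% of tested genes were called higher and 17.3% lower. The call of Arid5b was lost without zygote library 1 or 3 or 2-cell library 3 (adjusted p = 0.0578, 0.0958 and 0.104). Quantile normalization moved the higher calls among all calls from 65.5% to 48.8%. Rbm4, which rose in wild type, had a log2 difference of 0.4 (adjusted p = 0.194). S100a14, which fell in wild type, was at 0.45, next to the threshold (adjusted p = 0.0501), and was called higher in 6 of 16 alternatives. Insm1 was at -0.34, Itga9 at 0.24 and Cd7 at 0.36 (adjusted p = 0.0949, 0.121 and 0.303). Whether the courses differ between genotypes was not tested, because the difference is made of the comparisons that picked the genes.

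**Figure D3:**
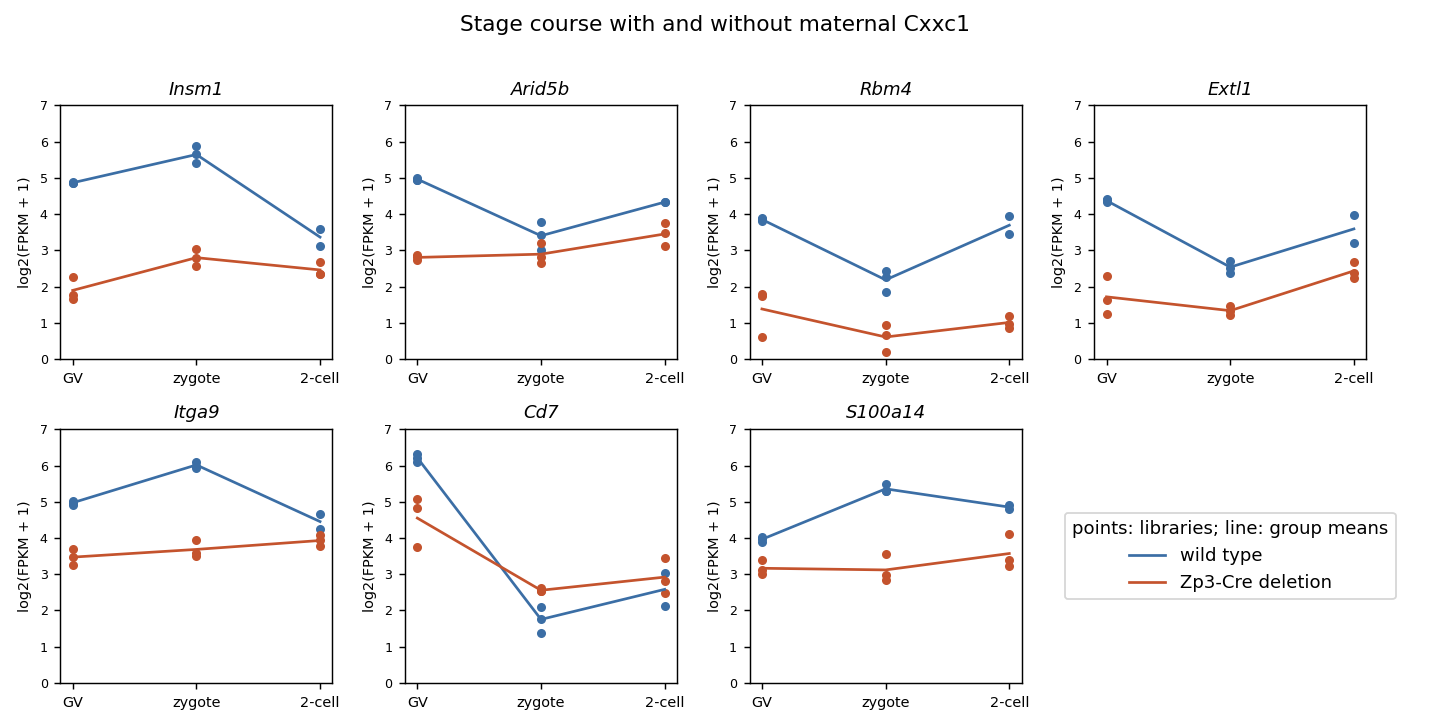
Level of each gene as log2(FPKM + 1) (vertical axis) at the GV, zygote and 2-cell stage (horizontal axis), with GV oocytes of 3 weeks. Points are libraries, lines join group means, and colours separate wild type from Zp3-Cre deletion. The wild-type lines of Insm1, Itga9 and S100a14 peak in zygotes, and those of Arid5b, Rbm4 and Extl1 dip there.

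Age alone was compared in wild-type oocytes. Between 3 weeks and 3 months 0 of the 7 was called by limma, and 1, Extl1, had an unadjusted p under 0.05, where 2.25% of tested genes were called higher and 1.7% lower. Extl1 was lower at 3 months in every library, with a log2 difference of -0.59 (SE 0.229, adjusted p = 0.172). It was called in a fit with library weights (adjusted p = 0.00329) and in a fit on only these groups (adjusted p = 0.00358), in which Arid5b (log2 change 0.27, adjusted p = 0.00719) and Cd7 (log2 change 0.33, adjusted p = 0.0377) were also called, both higher at 3 months.

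Rbm4 has a close paralog, Rbm4b, which was not among the picked genes and was tested in each comparison. It was chosen after its values were seen, so its p-values are those of a gene picked with its changes known. Rbm4b was at 12.4, 9.74 and 9.88 FPKM in wild-type 3-week oocytes and at 15.3, 13.5 and 16.9 after deletion. At 3 months it was at 11, 9.68 and 12.9 against 17.2, 16.2 and 19.1. Its deletion libraries were above all wild-type libraries in both, opposite to Rbm4. Zygotes had 1.63, 1.49 and 1.85 FPKM against 3.10, 4.82 and 2.78, and 2-cell embryos 3.93 and 5.09 against 5.35, 7.69 and 5.50. The deletion libraries were above there too, as they were for 41.1% of all tested genes in zygotes. Rbm4b rose in 3-week oocytes (log2 change 0.48, adjusted p = 0.0344), 3-month oocytes (0.61, adjusted p = 0.00478) and zygotes (0.76, adjusted p = 0.00069), and had a difference of 0.37 in 2-cell embryos (adjusted p = 0.0792). Of all tested genes, 18.3%, 34.2%, 35.3% and 37.1% were called higher in these comparisons. All of the called rises lost their call under median-of-ratios scaling (0.37, 0.37 and 0.36, adjusted p = 0.125, 0.0857 and 0.0912), while the sign held. Under quantile normalization the 3-week and zygote calls were lost (adjusted p = 0.112 and 0.242). The 3-month call was kept (0.49, adjusted p = 0.0445), and the 2-cell difference was called (0.54, adjusted p = 0.0308). The call at 3 weeks was also lost without any 1 of 4 libraries, wild-type 2 or 3 or deletion 1 or 3 (adjusted p = 0.117, 0.113, 0.0749 and 0.127).

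Reads of such near-identical genes could be divided between them by the authors' quantification, so the sum of both is also given. Rbm4 and Rbm4b together measured 24.2 ± 2.01 FPKM in wild-type and 17.0 ± 2.68 in deletion oocytes at 3 weeks, and 23.9 ± 1.89 and 20.2 ± 1.72 at 3 months (SD, n = 3 each). In zygotes the sums were 5.27 ± 1.1 and 4.13 ± 1.46 (SD, n = 3 each). In 2-cell embryos they were 16.6 ± 2.36 (SD, n = 2) and 7.20 ± 1.54 (SD, n = 3). The libraries of the sum did not overlap at 3 weeks and in 2-cell embryos. They overlapped at 3 months (21.8 to 25.4 against 19.1 to 22.2 FPKM) and in zygotes (4.08 to 6.25 against 2.93 to 5.75 FPKM).

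**Figure D4:**
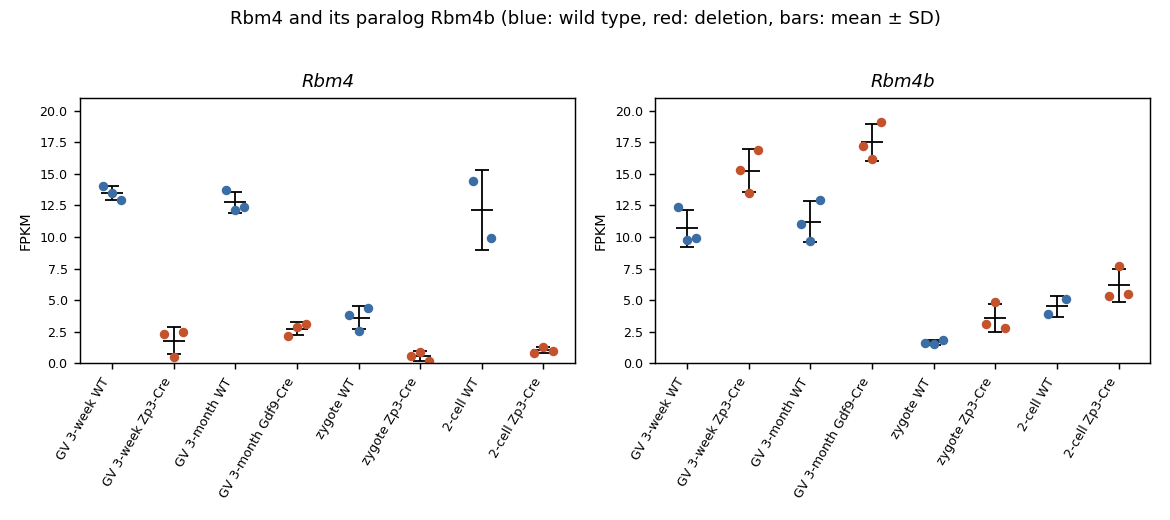
FPKM of Rbm4 and Rbm4b (vertical axes, linear from 0) in each library, with the 8 groups along the horizontal axis, points for libraries and bars for mean and SD. Rbm4 is lower and Rbm4b higher in the deletion libraries of both GV comparisons.

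The genes whose levels ran most like each member were sought among 7576 tested genes with a mean of at least 5 FPKM, by Pearson's r of log2(FPKM + 1) over the 23 libraries. The libraries fall into 8 groups and share the deletion and the stages, so r describes the pattern only. The nearest to Insm1 were Slc26a9 (r = 0.962), Cpa1 (r = 0.960) and Oog3 (r = 0.950), and Oog3 was also among the nearest 3 of Itga9 (r = 0.959) and S100a14 (r = 0.883). Oog3, an oocyte-specific leucine-rich repeat gene, had means of 373 FPKM in wild-type and 109 in deletion oocytes at 3 weeks, and 910 and 159 in zygotes. Tdrd9, an RNA helicase of the piRNA pathway, was among the nearest of both Extl1 (r = 0.936) and Arid5b (r = 0.935), and so were Sipa1l3 (r = 0.907 and 0.940) and Abcc3 (r = 0.901 and 0.873). Tdrd9 had means of 12.9 and 3.43 FPKM in wild-type and deletion oocytes at 3 weeks and 5.28 and 2.36 in zygotes. Rbm4 was closest to Fank1 (r = 0.950), Tmcc2 (r = 0.918) and Lrrc4 (r = 0.909). Cd7 was closest to Cep131 (r = 0.970), 2700054A10Rik (r = 0.956) and Cyp4f39 (r = 0.954). For S100a14 the closest was the polarity gene Pard3 (r = 0.910), followed by Oog3 and then Gm19784 (r = 0.880), and Fa2h and Accsl followed Oog3 for Itga9 (both r = 0.928).

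Families and partners of the genes were examined in lists chosen with earlier results of these data known, and tested in all 4 deletion comparisons with limma. The genes named from a list include its called genes with the largest changes, so their p-values come after that choice. For comparison, 11.3% of all tested genes were called lower and 18.3% higher in 3-week oocytes, 15.2% and 34.2% in 3-month oocytes, 11.4% and 35.3% in zygotes, and 29.4% and 37.1% in 2-cell embryos. Under median-of-ratios scaling, the higher calls among all calls went from 61.8% to 45.4% in 3-week oocytes, from 69.2% to 48.3% in 3-month oocytes and from 75.6% to 41.1% in zygotes, so counts of rises depend on scaling.

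Of 13 tested INSM1 partners and targets, 3 fell and 5 rose at 3 weeks, 4 fell and 3 rose at 3 months, 2 fell and 5 rose in zygotes, and 5 fell and 5 rose in 2-cell embryos. Their medians, between 0.09 and 0.18, lay near those of all tested genes, between 0.09 and 0.22. Neurog3, a neuroendocrine transcription factor gene, fell in all 4 comparisons, by 1.61, 1.55, 1.71 and 1.5 on the log2 scale (adjusted p = 6.82e-06, 3.48e-06, 5.14e-07 and 6.34e-06). Its wild-type means were 17.9, 17.9, 77.8 and 54.6 FPKM and its deletion means 5.52, 5.41, 23.1 and 18.8. Over the 7 neuroendocrine markers listed, of which Neurog3 is 1, the summed level at 3 weeks was 63.2 to 65.9 FPKM in wild-type and 46.5 to 50.2 FPKM in deletion libraries. Chga, the chromogranin A gene, made up most of the rest, with means of 46.0 and 41.7 FPKM, and Neurod1 and Pcsk1 were listed at 0 in all GV and zygote groups. Of 4 tested neuroendocrine markers, 1 was called lower and 0 higher at 3 weeks, and 2 lower and 2 higher at 3 months. In zygotes 2 were called lower and 0 higher, and in 2-cell embryos 2 lower and 1 higher. Neurog3 is among the lower ones each time, and the shares over all tested genes are those given above. The part of other cells in the fall of Neurog3 was not tested. Hdac1, a histone deacetylase, rose in both GV comparisons and in zygotes and fell in 2-cell embryos, with log2 changes of 0.96, 1.02, 2 and -2.56 (adjusted p = 0.000468, 0.000114, 1.4e-08 and 9.74e-10).

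Among 15 tested genes of the ARID family with PHF2 and PHF8, 5 fell and 3 rose at 3 weeks, 5 fell and 4 rose at 3 months, 5 fell and 5 rose in zygotes, and 8 fell and 1 rose in 2-cell embryos. The 2-cell median was -0.4 against 0.16 over all tested genes. Arid1a, a subunit of the BAF remodelling complex, fell in each comparison, by 1.09, 1.47, 1.15 and 0.4 (adjusted p = 7.37e-08, 6.34e-10, 2.68e-09 and 0.00187). Phf2, the partner of ARID5B, fell in zygotes by 1.32 (adjusted p = 4.75e-06), from a mean of 7.87 to 2.49 FPKM, and was at -0.17 in 3-week oocytes (adjusted p = 0.527). It also fell by 0.5 at 3 months (adjusted p = 0.0287) and by 0.6 in 2-cell embryos (adjusted p = 0.0128), calls that were lost in 5 of 16 and 4 of 15 alternatives. Arid3c rose by 2.21 and 2.68 in oocytes and by 1.49 in zygotes (adjusted p = 2.32e-08, 6.92e-10 and 3.75e-07).

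Of 26 tested RNA-binding splicing regulators, 4 fell and 3 rose at 3 weeks, 9 fell and 8 rose at 3 months, 8 fell and 10 rose in zygotes, and 9 fell and 12 rose in 2-cell embryos. Rbm15, which recruits the RNA methylation machinery, fell in all 4, by 0.63, 0.65, 0.77 and 2.01 (adjusted p = 3.95e-06, 1.06e-06, 4.32e-08 and 1.67e-13). Medians of the list were 0, -0.13, 0.15 and 0.28.

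Of 17 tested heparan sulfate genes, 1 fell and 2 rose at 3 weeks and 2 fell and 3 rose at 3 months. In zygotes 1 fell and 7 rose, and in 2-cell embryos 6 fell and 5 rose, or 9 and 5 without deletion library 3. Extl3, the family member that starts the heparan sulfate chain, fell in oocytes by 1.57 and 1.63 and in zygotes by 0.49, and rose in 2-cell embryos by 0.75 (adjusted p = 6.94e-09, 1.88e-09, 0.00106 and 2.38e-05). Its means in oocytes were 35.1 against 11.1 FPKM at 3 weeks and 37.8 against 11.6 at 3 months. Hpse, the enzyme that cleaves heparan sulfate, rose in both GV comparisons, by 1.87 and 2.03 (adjusted p = 1.89e-07 and 2.45e-08), from 7.20 to 29.6 FPKM and from 7.98 to 35.7. It was also called higher in zygotes, from 13.8 to 30.4 FPKM, and in 2-cell embryos, from 6.96 to 11.1 FPKM. The 2-cell call was lost under median-of-ratios scaling (0.36, adjusted p = 0.111) and with equal FPKM totals (0.42, adjusted p = 0.0705).

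Integrins and ligands of alpha9 numbered 19 tested, of which 2 fell in each of the GV and zygote comparisons and 5, 7 and 7 rose, while 6 fell and 5 rose in 2-cell embryos. Itgb1, the beta1 partner of alpha9, was at 0.38 and 0.31 in oocytes (adjusted p = 0.322 and 0.373) and rose by 0.89 in zygotes and 1.28 in 2-cell embryos (adjusted p = 0.0113 and 0.00106). The zygote call was lost in 2 of its 16 alternatives (adjusted p up to 0.323) and the 2-cell call in 1 of 15 (adjusted p = 0.105). Without deletion library 3 the 2-cell change of Itgb1 was 0.74 and the call was kept. Npnt, the gene of the matrix ligand nephronectin, rose in all 4 comparisons, by 1.02 to 1.4, with group means of 3.55 FPKM or less. Itga10 fell in all 4, by 0.44 to 1.33, from wild-type means of 2.47 FPKM or less.

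In the S100 family 9 genes were tested, and limma called 0 at 3 weeks and 0 in zygotes, where 0 also had an unadjusted p under 0.05. At 3 months 2 rose, among them S100a11 (1.87, adjusted p = 0.0485). That call was lost in 12 of its 16 alternatives, among them the leaving out of any 1 of the 6 libraries (adjusted p up to 0.144). It was made in the comparison in which granulosa markers were higher in the deletion libraries. The part of those cells in that result was not tested. In 2-cell embryos 2 rose and 2 fell, and without deletion library 3 the count was 1 and 3 of 8 tested.

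Of 7 tested partners and relatives of CD7, 1 fell and 2 rose at 3 weeks, 3 fell and 3 rose at 3 months, 1 fell and 3 rose in zygotes, and 5 rose in 2-cell embryos. Cd9, a tetraspanin of the egg surface needed for fusion with sperm, was, like Cd7, lower after deletion in oocytes and higher in zygotes. It fell by 0.71 and 1.15 in oocytes (adjusted p = 0.00291 and 1.23e-05) and rose by 3.68 in zygotes (adjusted p = 6.47e-13). Its means were 59.2 and 35.8 FPKM at 3 weeks, 61.6 and 27.1 at 3 months, and 2.17 in wild-type against 40.3 in deletion zygotes. In those zygotes 11 of 12 oocyte markers were also called higher, with a median log2 change of 1.93, and their part in the rise of Cd9 was not tested.

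**Figure D5:**
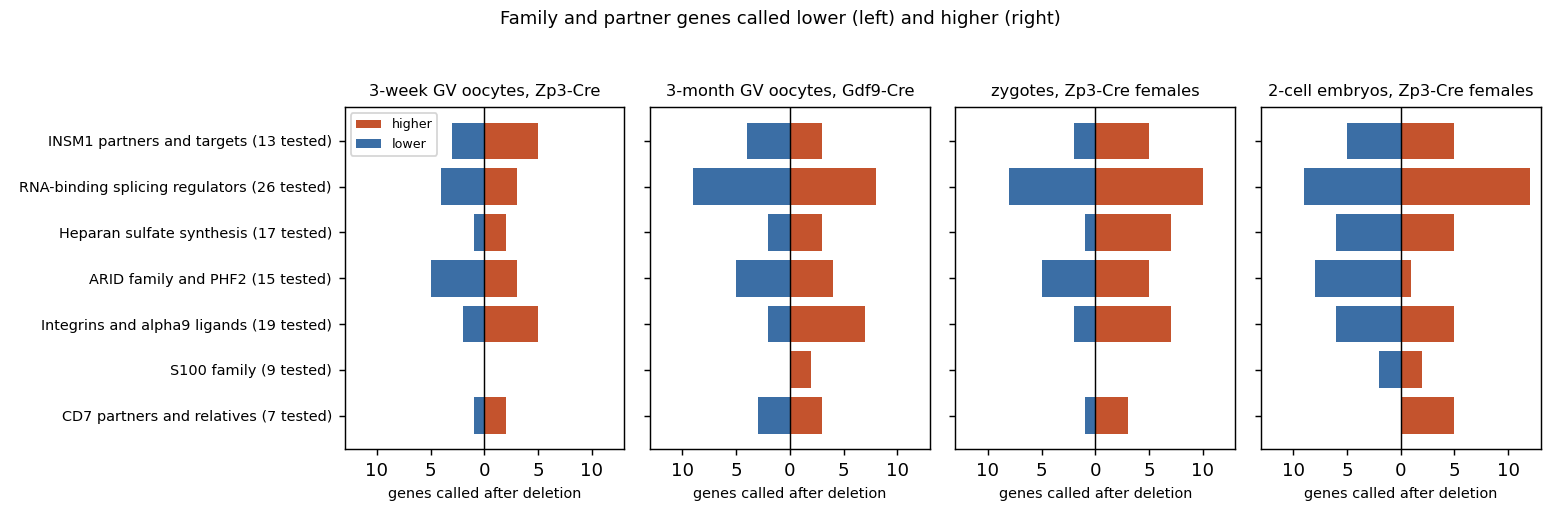
Number of genes called higher (bars to the right) and lower (bars to the left) by limma at an adjusted p under 0.05, for each list (vertical axis, with the number tested) in the 4 deletion comparisons (panels). The ARID list has 8 lower and 1 higher in 2-cell embryos, and the S100 list has no call in 3-week oocytes or zygotes.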

How the data were processed

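The authors deposited FPKM per gene in 1 table with a column for each of the 23 samples. The tools named, per the submitters' processing notes, include SAMtools, Cufflinks 2.2.1, TopHat2 2.0.12 and CASAVA 1.4, without roles. The sources used here give no annotation or strand and no role for the builds mm10 and mm9. FPKM holds no read counts, so depth is unknown. FPKM totals per library ran from 295901 to 420415. From the deposited FPKM, log2(FPKM + 1) was computed here. Genes reaching an FPKM of 1 in 2 or more libraries were tested with limma 3.58.1 in R 4.3.3, as 8 group means with a trended prior and 15 residual degrees of freedom, adjusting p by Benjamini-Hochberg over 13776 genes at a threshold of 0.05. The procedure was tested on simulated data. Fold changes on this scale understate those of low genes. SD is over libraries.

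The 7 genes and all lists were chosen with earlier results of these data known. Named were the 7 genes, Cxxc1, the 3 nearest genes of each, and in each list the 2 genes with the highest mean and, per deletion comparison, the called gene with the largest rise and fall. Of these, 1 list gene is counted but not reported here. Rbm4b, and the further values given of named genes, were chosen after values were seen. The alternatives were other pseudocounts, filters, scalings, weights, fits on only the groups compared, a replicate block and leaving out each library. The RefSeq sequences were read from the GRCm38.p6 table. Bisulfite data were not analysed here.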

Additional observations from a re-analysis of the deposited data

Results flagged for a closer look

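Of the 7 genes, Cd7 was the one whose deletion effect had opposite directions at different stages. Every deletion library was below every wild-type library in GV oocytes of 3 weeks and of 3 months, with log2 differences of -1.67 and -2.64, and every deletion library was above every wild-type library in zygotes, with a log2 difference of 0.8. The difference between the stages was not tested, since these comparisons picked the gene. The zygote levels were low, 1.59 to 5.11 FPKM over both groups.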

How the results depend on the processing

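Counts of list genes moved with scaling and with library weights. The rises in 3-week oocytes, 20 as reported, were 31 with library weights, 13 with equal FPKM totals, 10 with median-of-ratios scaling, 10 with quantile normalization and 11 to 17 with 1 library left out. The falls there, 16 as reported, were 29 with library weights. Rises at 3 months went from 30 to 16 under quantile normalization. In zygotes, rises went from 37 to 24 and falls from 19 to 37 under median-of-ratios scaling, and falls to 29 under quantile normalization. Under median-of-ratios scaling the zygote changes of Ext1 (-0.59) and Hs2st1 (-0.49) reversed. Without deletion 2-cell library 3, S100a6 and Lgals1 reversed in 2-cell embryos, and over the libraries left out their values ran from -1.17 to 2.08 and from -1.32 to 1.42. Quantile normalization reversed Cd7 between wild-type zygotes and 2-cell embryos (-0.12) and S100a14 between Zp3-Cre oocytes and zygotes (0.6). The cause was not tested.

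Of the 7 genes, 6 fell in 2-cell embryos as reported, and 5 to 6 with 1 library left out. Leaving out a wild-type 2-cell library leaves 1 sample, assumed to vary like the other groups. The 4 rises from wild-type zygotes to 2-cell embryos became 0 under quantile normalization. With age, 2 rises and 1 fall were called in a fit on only those groups, and 1 fall with library weights, against 0 and 0. From Zp3-Cre oocytes to zygotes the 1 rise became 2 with equal FPKM totals, 3 with median-of-ratios scaling, 4 with quantile normalization and 1 to 2 with 1 library left out. The 2 falls became 1 with quantile normalization, 1 in the fit on only those groups, and 1 to 3 with 1 library left out. From Zp3-Cre zygotes to 2-cell embryos the 2 rises became 1 with quantile normalization, 1 in the fit on only those groups, and 1 to 3 with 1 library left out. The 0 falls became 1 with median-of-ratios scaling, 1 with quantile normalization, and 0 to 1 with 1 library left out.

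Same-numbered libraries of the groups compared were correlated after the group means were taken off. Over 25 pairs r was -0.07 to 0.08, under the level set for pairing. These are not correlations of expression levels, which were at least 0.936 within each group. Libraries correlated best with their own number in 6 of 6 cases between Zp3-Cre oocytes and zygotes and in 0 to 2 of 6 elsewhere. With a replicate block, the calls in 2-cell embryos went from 9159 to 9074. The block ended the calls of S100a14 between wild-type zygotes and 2-cell embryos (-0.51, adjusted p = 0.0531) and of S100a11 at 3 months (adjusted p = 0.0592), and changed no other call given for the genes named. Without read counts, what depth limits could not be assessed.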

Other observations

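Among the list genes with large falls in 2-cell embryos of deletion females, 3 are given, chosen after their values were seen. Their wild-type 2-cell libraries are the controls of these falls, so the high level there is no separate result. Kdm5b, a demethylase of histone H3 lysine 4, had means of 0.711 FPKM in wild-type zygotes, 69.2 in wild-type embryos at the 2-cell stage and 4.34 in those of deletion females. Its change after deletion at the 2-cell stage was -3.8 on the log2 scale (limma, adjusted p = 7.88e-11). The splicing regulators Rbm5 and Rbm10 had means of 0.265 and 0.193 FPKM in wild-type zygotes and 45.4 and 46.5 in wild-type 2-cell embryos. They fell in deletion 2-cell embryos, with log2 changes of -3.44 and -3.58 (limma, adjusted p = 1.34e-09 and 1.36e-11). Each of these calls held in all 15 alternatives.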
